A study of Mus musculus with 4 samples.

Results

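The genes described here are 7 mouse genes for proteins that bend or organise DNA: Hmga1 and Hmga2, which encode the HMGA architectural proteins, Hmgb1, Hmgb2 and Hmgb3, which encode the HMGB proteins, Sox4, which encodes an HMG-box transcription factor, and Cux1, which encodes a homeodomain factor with CUT repeats. They were taken by gene symbol, as factors that the study names, such as Hmga1 and Cux1, with their relatives. The study names Hmga1 and Cux1 beside NF-κB as interacting with CXCL1. By quantitative PCR it reports higher mRNA of both genes in the knockout. Citing other work, it proposes a link of CXCL1 to the SOX4 promoter through NF-κB. All 7 of 7 genes were found among the 24706 genes of each file. RNA sequencing was performed on 4 libraries labelled as myeloid cells, 2 of wild-type genotype (wt) and 2 of conditional knockout genotype (cko). In the cko mice (PD-1f/f; LysM-Cre) LoxP sites flank an exon of Pdcd1, the gene for the inhibitory receptor PD-1, and Cre recombinase is driven by the LysM promoter, which is active in monocytes, macrophages and granulocytes. The controls are called wild-type in the labels and methods and PD-1f/f in the figures of the study, and they carry no LysM-Cre. The cells are given as CD11b+ cells sorted from fetal liver at postnatal day 3 in the results of the study and as fetal liver at postnatal day 2 in its methods, and the labels give neither age nor pooling of animals.

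HMGA proteins bind the minor groove of AT-rich DNA through short AT-hooks and help assemble transcription factor complexes on promoters, among them NF-κB complexes. HMGB proteins carry 2 HMG boxes that bend DNA without strong sequence preference, and HMGB1 that leaves the cell acts as an alarm signal through Toll-like receptors and RAGE. Hmga2 is a target of the let-7 microRNAs and is known from fetal blood stem cells, where let-7 is held low, and Cux1 and Sox4 act in blood progenitors.

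The libraries held 17691505 to 22212407 counted reads, as worked out from the step that 1 read adds to a value. Values are FPKM, which scale reads for gene length and library depth, and 1 read on a gene of 1 kb was worth 0.0450 to 0.0565 FPKM. Pdcd1 had 28.5 and 34.7 FPKM in wt replicates 1 and 2 and 17.1 and 21.4 FPKM in cko replicates 1 and 2, so transcripts of the targeted gene were lower but present in both cko libraries. Itgam, which encodes CD11b, had 48.5 to 54.3 FPKM in the 4 libraries, whereas late neutrophil, erythroid and B progenitor transcripts were present as well. Y-linked Ddx3y had 24.9 FPKM in wt replicate 2 and at most 0.00866 FPKM in the other 3 libraries, and Xist had 0.0119 FPKM there and 4.91 to 7.98 FPKM in the others, so 1 of the 4 libraries differed from the rest in sex-linked transcripts.

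Several of these genes have near-identical copies elsewhere in the genome, and the copies carried reads of their own. The coding stretches that follow show why reads of a gene and its copy can be split, as annotated by GENCODE M21 on GRCm38. They lie in Hmgb2, chr8:57513981-57514100 (plus strand), and in its processed copy Gm4739, chr10:26108275-26108394 (plus strand), named AC153546.1 in the files. Capitals mark the 2 bases at which the aligned 630 coding bases differ, an identity of 99.7%.
Hmgb2: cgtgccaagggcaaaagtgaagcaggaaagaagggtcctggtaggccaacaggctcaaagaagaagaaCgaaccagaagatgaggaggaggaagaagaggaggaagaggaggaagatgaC
Gm4739: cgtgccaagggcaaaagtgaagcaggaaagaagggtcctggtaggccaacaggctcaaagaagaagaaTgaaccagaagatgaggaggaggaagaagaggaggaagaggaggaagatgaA

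Promoters are shown because the study links Hmga1 and Cux1 to NF-κB and to the chemokine gene Cxcl1. The NF-κB consensus was searched on both strands from 250 bases before to 50 bases after each RefSeq start on GRCm38.p6, and 8.46% of 32851 such promoters held a match. That share counts every start, whereas the 7 genes were counted once each, and Hmga1 and Hmgb1 have a second start. Matches were found for 3 of the 7 genes, Cux1, Hmga1 and Hmgb2, and for Cxcl1. In the 120 bases printed for each, all of them before the start, capitals mark the match, which in Cux1 and Cxcl1 is a pair of overlapping matches 11 bases long. The regions are chr5:136565982-136566101 (minus strand) for Cux1, chr17:27556324-27556443 (plus) for Hmga1, chr8:57511723-57511842 (plus) for Hmgb2 and chr5:90891119-90891238 (plus) for Cxcl1.
Cux1: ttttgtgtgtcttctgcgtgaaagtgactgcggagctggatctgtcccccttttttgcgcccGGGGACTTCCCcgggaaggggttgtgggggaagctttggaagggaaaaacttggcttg
Hmga1: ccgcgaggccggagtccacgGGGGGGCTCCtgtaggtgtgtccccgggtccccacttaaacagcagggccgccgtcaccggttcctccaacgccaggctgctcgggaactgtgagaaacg
Hmgb2: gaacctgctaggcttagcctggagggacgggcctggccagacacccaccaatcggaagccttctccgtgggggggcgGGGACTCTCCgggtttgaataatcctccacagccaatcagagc
Cxcl1: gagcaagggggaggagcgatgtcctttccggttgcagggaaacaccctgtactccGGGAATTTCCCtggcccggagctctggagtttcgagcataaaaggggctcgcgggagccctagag

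The match lay 58 to 48 bases before the start in Cux1, 71 to 61 in Cxcl1, 43 to 34 in Hmgb2 and 230 to 221 in Hmga1. Hmga1 has a second start in the table whose window holds no match. The CCAAT box, searched as CCAAT on both strands and held by 37.4% of promoters, occurred 4 times each in Hmgb2 and Sox4, 3 times in Hmgb3 and 3 times in 1 of the 2 windows of Hmgb1. It did not occur in the windows of Hmga1, Hmga2, Cux1 or Cxcl1. The GC content of the windows ranged from 52% in Sox4 to 77% in 1 window of Hmgb1, against a median of 52.7% over all promoters. These are matches of letters, and binding was not measured.

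The levels of the 7 genes spanned several orders of magnitude. Hmgb2 was the most abundant, at 971 ± 85.3 FPKM in wt (SD, n = 2), and ranked 44 by level among the 10779 genes that averaged 1 FPKM or more over the libraries, which were tested. Hmga1 (93.6 ± 10.2 FPKM) and Hmgb3 (74.1 ± 8.59 FPKM) followed in wt, with no overlap between their wt values. Hmgb1 stood at 23.0 ± 1.62 FPKM, which leaves out the reads on its copies, and Cux1 at 4.90 ± 0.797 FPKM. Hmga2 (0.0876 ± 0.0204 FPKM) and Sox4 (0.0746 ± 0.0272 FPKM) overlapped in wt and fell below the minimum level, so 5 of the 7 genes were tested.

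**Figure D1:**
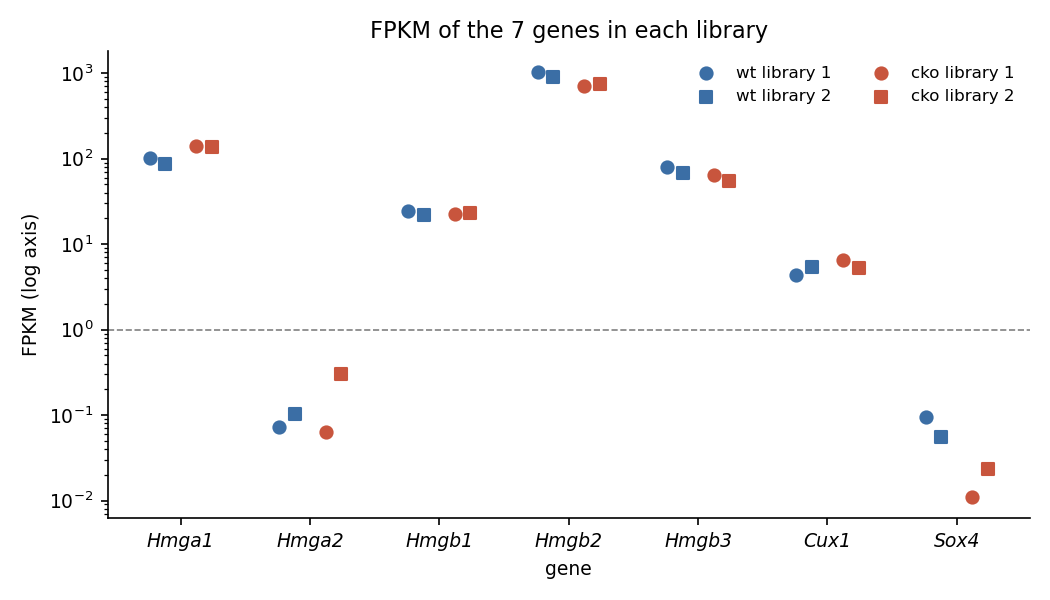
FPKM (log axis) of the 7 genes in each library, blue for wt and red for cko, circles for replicate 1 and squares for replicate 2. The dashed line is the minimum mean of 1 FPKM. Hmgb2 lies highest, Hmga1 is higher in both cko libraries, and Hmga2 and Sox4 lie below the line.

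The comparison of cko with wt asks whether these factors differ between the genotypes. Only the cko mice carry LysM-Cre, so loss of PD-1 and presence of Cre cannot be told apart. It was made with limma on log2(FPKM + 1), a scale that understates the change of low genes. Hmga1 was higher and Hmgb2 lower in the cko libraries by unadjusted p under 0.05, and 0 of the 5 tested genes passed after Benjamini-Hochberg adjustment over all tested genes. Over all tested genes, 16.4% had an unadjusted p under 0.05, 11.4% higher and 4.95% lower in cko, and 0% had an adjusted p under 0.05, with or without a log2 change of at least 1. The threshold in the results text of the study, |log2FC| above 1 with an unadjusted p under 0.01, was met by 2.29% of tested genes and by 0 of the 5. The change lay above 0 for 2 of the 5 and for 60.4% of all tested genes. The groups did not overlap for 3 of the 5, higher in cko for Hmga1 and lower for Hmgb2 and Hmgb3, where the groups lay apart for 51.6% of all tested genes (33.6% higher and 18.0% lower). The labels do not say whether replicates came from separate animals, so p-values measure only the spread between these libraries, and an exact permutation test of 2 against 2 libraries cannot go below a two-sided p of 0.333.

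Of the HMGA genes, Hmga1 (ENSMUSG00000046711, chr17:27556620-27563674, plus strand) had 101 and 86.4 FPKM in wt replicates 1 and 2 and 140 and 138 FPKM in cko replicates 1 and 2. Both cko libraries lay above both wt libraries, and the cko mean was 1.48 times the wt mean. Its log2 change was 0.57 (standard error 0.14, 95% interval 0.21 to 0.93, unadjusted p = 0.00886, adjusted p = 0.214, limma), which lay above 87.7% of all tested genes. Without wt replicate 2 the change was 0.46 and the unadjusted p 0.0769 (limma), so the call at an unadjusted p under 0.05 rested on that library.

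Of the windows of 50 bases in Hmga1 transcripts, 55.0% also occur in other annotated transcripts, and of the windows of 100 bases 40.1%. Reads cannot be assigned with certainty where sequence is shared, so the level of Hmga1 and the size of its difference are uncertain.

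Hmga2 (chr10:120361275-120476469, minus strand), the fetal HMGA gene, was close to the limit of detection. It had 0.0731 and 0.102 FPKM in wt and 0.0630 and 0.300 FPKM in cko, which stand for 11, 13, 8 and 36 reads. The highest value was that of cko replicate 2 and the lowest that of cko replicate 1, so the groups overlapped. The processed pseudogene Gm38158, which shares 52 windows of 50 bases with Hmga2, had 41 and 40 reads in wt and 49 and 26 in cko. Of the windows of 50 bases in Hmga2 transcripts 0.768% also occur in other annotated transcripts, and of those of 100 bases 0%. In RPM (reads scaled for library depth only), cko replicate 2 had 2.03 (95% Clopper-Pearson interval 1.43 to 2.82), above the 0.427 (0.184 to 0.841) of cko replicate 1, where intervals cover counting error only.

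Of the HMGB genes, Hmgb2 (ENSMUSG00000054717, chr8:57511907-57515999, plus strand), known for its high level in dividing cells, had 1031 and 911 FPKM in wt and 707 and 740 FPKM in cko. Both cko libraries lay below both wt libraries, and the cko mean was 0.745 of the wt mean. The log2 change was -0.42 (standard error 0.14, 95% interval -0.77 to -0.07, unadjusted p = 0.0263, adjusted p = 0.255, limma). The change was below 0 under every alternative tried, but the unadjusted p was above 0.05 when any 1 library was left out (log2 changes of -0.51 to -0.33). With the replicate number as a block the unadjusted p was 0.0795 (limma). Gm4739 had 501, 428, 348 and 340 FPKM in wt replicates 1 and 2 and cko replicates 1 and 2, both cko values below both wt values, and the copies of Hmgb2 together took 10.2% to 10.8% of the reads in each library. In RPM the log2 difference was -0.42 for Hmgb2 alone and -0.43 with the reads of its copies added.

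Hmgb3 (ENSMUSG00000015217, chrX:71555918-71560676, plus strand), which is known from blood progenitors, had 80.2 and 68.0 FPKM in wt and 65.1 and 55.4 FPKM in cko. The groups did not overlap, but the gap between wt replicate 2 and cko replicate 1 was smaller than the spread within either group. The log2 change was -0.29 (standard error 0.16, 95% interval -0.70 to 0.11, adjusted p = 0.414, limma). With 1 library left out it was -0.18 without wt replicate 1 or without cko replicate 2 and -0.41 without wt replicate 2 or without cko replicate 1, and with erythroid and hepatocyte genes removed and libraries rescaled it was -0.086. The gene is X-linked, and wt replicate 2 is the library with Y-linked transcripts. Copies took 3.21% to 4.22% of its reads in 3 libraries and 9.74% in cko replicate 2, where the processed copy Gm11805 had 15.0 FPKM against 0.825 to 3.47 FPKM elsewhere. In RPM the log2 difference was -0.30 for Hmgb3 alone and -0.25 with the copies added.

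Hmgb1 (ENSMUSG00000066551, chr5:149046702-149184489, minus strand), the alarm protein, had 24.1 and 21.8 FPKM in wt and 22.7 and 23.1 FPKM in cko. Both cko values lay between the wt values. The log2 change was -0.0034, with a 95% interval from -0.37 to 0.36 (adjusted p = 0.993, limma), so changes within that interval were not excluded. Of the 98 annotated genes that share at least 20 windows of 50 bases with Hmgb1, 30 were listed and 9 averaged 1 FPKM or more, led by Gm5527 with 23.7 to 34.8 FPKM. Together they took 35.6% to 38.4% of the reads, about the same share in every library. In RPM the log2 difference was -0.0035 for Hmgb1 alone and -0.01 with their reads added.

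**Figure D2:**
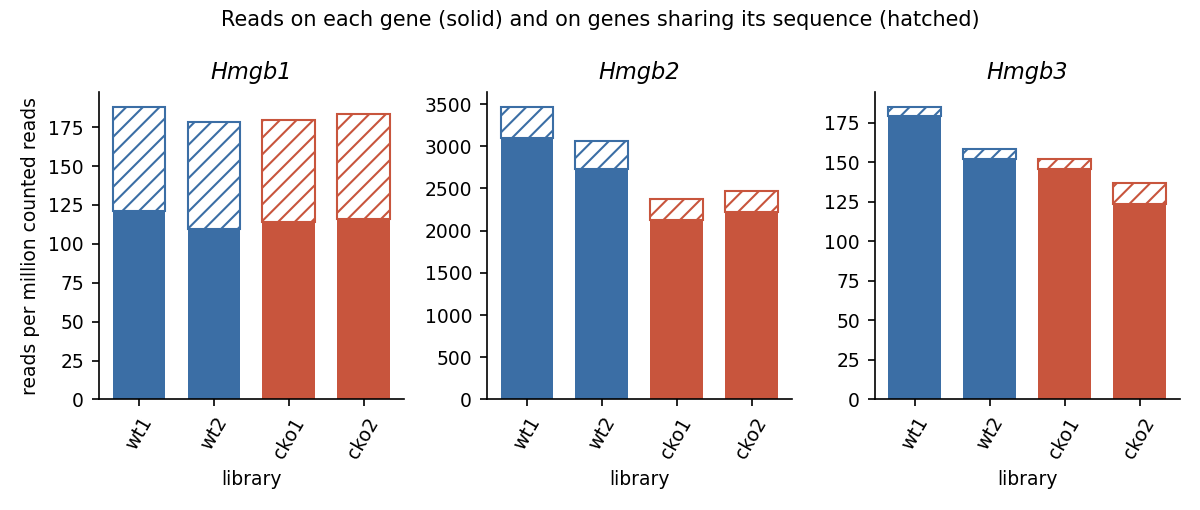
RPM (reads scaled for library depth) on Hmgb1, Hmgb2 and Hmgb3 (solid bars) and on listed genes that share at least 20 windows of 50 bases with each (hatched), by library, blue for wt and red for cko. The hatched part is about the same share in every library for Hmgb1 and Hmgb2, and is largest in cko replicate 2 for Hmgb3 (9.74%).

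The 2 other DNA-binding factors were low. Cux1 (ENSMUSG00000029705, chr5:136248135-136567490, minus strand) had 4.34 and 5.47 FPKM in wt and 6.57 and 5.19 FPKM in cko, from 1837 to 2466 reads. The cko replicate 2 value lay between the wt values, so the groups overlapped. The log2 change was 0.22 (standard error 0.20, 95% interval -0.29 to 0.73, adjusted p = 0.613, limma). The interval holds changes of either sign, so these libraries neither show nor exclude the rise in CUX1 mRNA that the study reports by quantitative PCR. With 1 library left out the change was 0.081 without wt replicate 1, 0.074 without cko replicate 1, 0.36 without wt replicate 2 and 0.37 without cko replicate 2. The same gene also encodes the Golgi protein CASP from an alternative transcript, and the value covers both products. Sox4 (chr13:28948919-28953713, minus strand) had 0.0939 and 0.0554 FPKM in wt and 0.0111 and 0.0236 FPKM in cko, or 10, 5, 1 and 2 reads. Both cko values lay below both wt values, at a depth where their counting intervals (0.00135 to 0.297 and 0.0137 to 0.408 RPM) overlapped those of wt (0.216 to 0.828 and 0.0863 to 0.620).

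**Figure D3:**
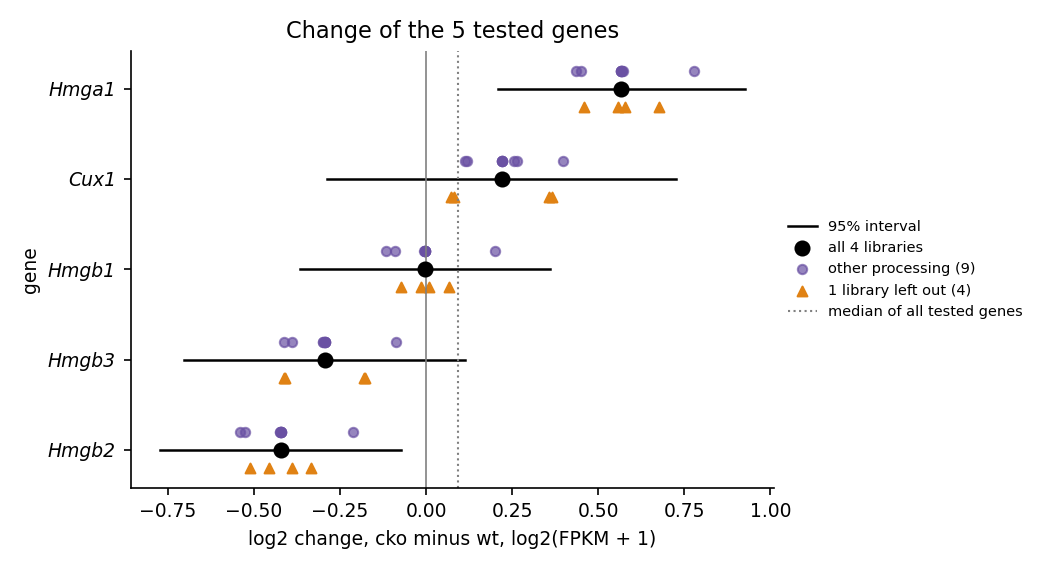
Log2 change (cko minus wt, on log2(FPKM + 1)) of the 5 tested genes, with the value from all 4 libraries (black) and its 95% interval, the values under other processing (purple) and with 1 library left out (orange). Hmga1 and Cux1 stay above 0 and Hmgb2 and Hmgb3 below 0 throughout, while Hmgb1 lies on both sides, and the dotted line is the median of all tested genes, 0.09.

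Ratios within a library do not depend on the scaling between libraries. Hmga1 over Hmgb2, in FPKM, was 0.0978 and 0.0949 in wt and 0.198 and 0.186 in cko, a log2 difference of 0.995. The groups lay apart, with the uncertainty of Hmga1 from shared sequence given above. Hmgb2 over Hmgb3 was 12.9 and 13.4 in wt and 10.9 and 13.4 in cko, with overlap. Hmga1 over Rela, the gene for the NF-κB subunit p65, was 4.21 and 3.46 against 4.17 and 3.87, also with overlap. Rela had the smallest log2 change of the NF-κB subunit genes, 0.48 against 0.70 to 1.73, so this ratio does not stand for the others. The balance between Hmga1 and Hmgb2 thus differed between groups, a value given as a description, since both genes had been seen to differ.

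The genes whose pattern over the 4 libraries was most like each member were found by the distance of their centred log2(FPKM + 1) values. They were Bloc1s5, Trim28 and Pirb for Hmga1, Katnbl1, Ddx52 and Ergic2 for Hmgb2, Alox15 and Trp53i11 for Hmgb3, Sergef, Hsf1 and Chfr for Hmgb1, and Ercc1, Capns2 and Acd for Cux1, at distances of 0.0232 to 0.0451. With 4 libraries such likeness is a description only.

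Other genes of these families were counted at an unadjusted p under 0.05, which 16.4% of all tested genes had. Of the 14 tested of 20 other HMG-box genes, 2 were higher and 0 lower by it, with a median log2 change of 0.03 against 0.09 over all tested genes. The 2 were Tcf7l2, a Wnt pathway factor, at 1.63 and 1.45 FPKM in wt and 3.23 and 5.83 in cko (log2 change 1.08, adjusted p = 0.214, limma), and Tox4 (0.43, adjusted p = 0.280, limma). Of the 4 tested SOX genes, 0 reached it, with a median of -0.02, and the 1 tested gene with CUT repeats, Satb1, had a log2 change of -0.04. Of 3 tested HMGN genes, which encode nucleosome-binding proteins, 0 were higher and 1 was lower (Hmgn5, 10.9 and 9.59 FPKM in wt and 7.75 and 5.82 in cko, log2 change -0.54).

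The partners of these factors were measured in the same libraries. Of all tested genes, 11.4% were higher and 4.95% lower at an unadjusted p under 0.05, and the median log2 change was 0.09. All 5 NF-κB subunit genes were higher at an unadjusted p under 0.05, with a median of 1.18, and 0 passed after adjustment. Their summed FPKM was 38.5 and 42.6 in the wt libraries and 66.3 and 105 in the cko libraries, highest in cko replicate 2. Of 7 tested receptor genes for HMGB1, Tlr2 was higher (31.5 and 17.2 FPKM in wt and 57.2 and 159 in cko, log2 change 1.99) and Cxcr4 lower (18.1 and 21.1 against 12.5 and 8.50, log2 change -0.86), each with an adjusted p of 0.214 (limma). Cxcl1 had 0.408 and 0.142 FPKM in wt and 0.968 and 6.96 in cko. Lin28a, which blocks let-7 maturation, was the 1 gene lower at an unadjusted p under 0.05 among 4 tested genes of a list of let-7 pathway and fetal genes (Arid3a, Dicer1, Igf2bp3 and Lin28a), at 14.1 and 18.8 against 9.96 and 7.54 FPKM, a log2 change of -0.84.

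Since Hmgb2 is known from dividing cells, proliferation genes were compared. Of 21 tested, 0 were higher and 2 lower at an unadjusted p under 0.05, H2afz (-0.56) and Cdk1 (-0.47), and the median was 0.17. Among all tested genes 11.4% were higher and 4.95% lower at that threshold, with a median of 0.09. The change lay above 0 for 15 of the 21 and below 0 for 6, and above 0 for 60.4% of all tested genes. Mki67 had 48.2 and 45.6 FPKM in wt and 58.5 and 57.4 in cko. H2afz, a histone variant gene, had 502 and 466 FPKM in wt and 328 and 326 in cko. Hmgb2 over H2afz was 2.05 and 1.95 in wt and 2.16 and 2.27 in cko, with both cko values above both wt values. H2afz had the lowest change of the list, so this ratio does not stand for the other proliferation genes.

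**Figure D4:**
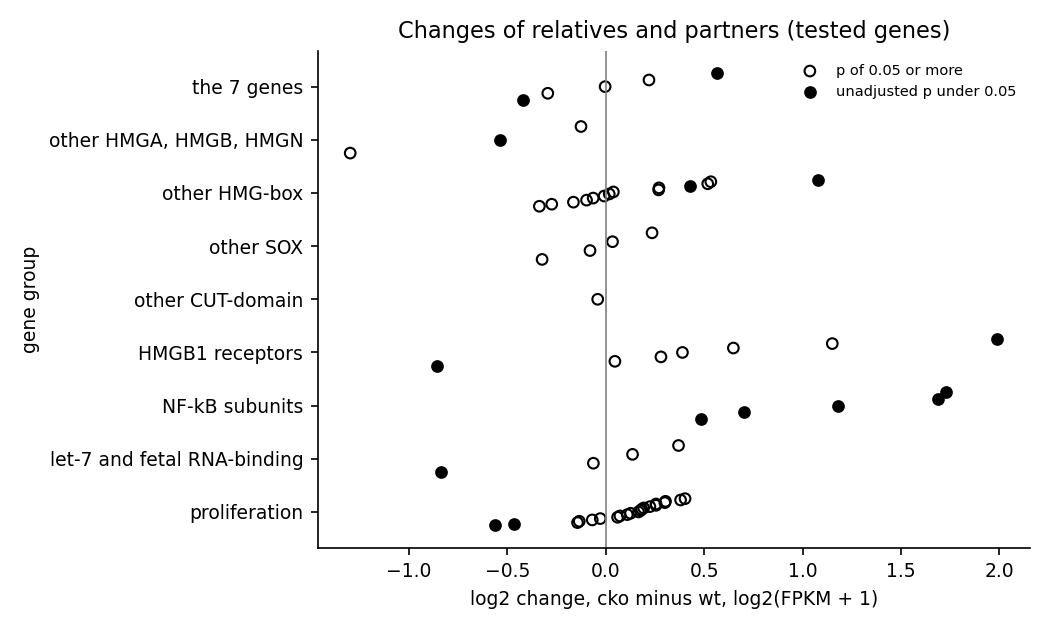
Log2 change (cko minus wt, on log2(FPKM + 1)) of each tested gene by group, filled where the unadjusted p was under 0.05. All 5 NF-κB subunits lie at 0.48 or above, whereas the other HMG-box, SOX and proliferation genes lie on both sides of 0.

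Markers of late neutrophils, which are CD11b+ cells, and of erythroid and B progenitor cells, which a CD11b+ sort as given in the results of the study would remove, also differed between the groups. Summed FPKM of 9 late neutrophil genes was 136230 to 160326 in wt and 90824 to 109507 in cko (6 of 9 lower at an unadjusted p under 0.05, 1 higher), and that of 11 erythroid genes 2350 to 3733 in wt and 1431 to 1528 in cko (6 of 11 lower, 0 higher). For 9 B progenitor genes the sum was 53.2 to 68.1 in wt and 34.5 to 45.3 in cko (2 of 6 tested lower, 0 higher). Among all tested genes 4.95% were lower and 11.4% higher at an unadjusted p under 0.05. Of the markers in these 3 lists, 0 stood at 0 in all libraries. In bulk RNA fewer cells of a type and less RNA per cell cannot be told apart, and the part of these cells in the values of Hmgb2, Hmgb3 and Hmga1 was not tested.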

How the data were processed

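RNA sequencing data of 4 libraries, 2 wt and 2 cko by their labels, were used. The authors deposited 1 FPKM value per gene and library for 24706 genes, with no scaling between libraries beyond depth and length. Their processing notes name TopHat2 2.0.12, Bowtie2 2.2.3, HTSeq 0.6.0 and the build mm9. However, 92.6% of the deposited positions were identical to GENCODE M21 on GRCm38, so coordinates were taken as GRCm38. Gene positions are printed as deposited, and that of Hmga1 differs from GENCODE M21. How reads shared by copies were counted is not given in the sources used here.

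Whole reads were worked out from the FPKM steps for 98.6% of the genes (within 0.01 reads). Groups were compared with limma 3.58.1 in R 4.3.3 (lmFit, eBayes with trend, two-sided) on log2(FPKM + 1) for genes averaging 1 FPKM or more, adjusted by Benjamini-Hochberg over all 10779. The fit was tested on simulated data. The members, gene lists and tests were chosen with earlier results of these data known. Named genes are the 7 members, up to 4 genes per list with the largest change, their nearest genes, copies, and Cxcl1, Pdcd1 and Lyz2 as checks, and copies were found as genes sharing at least 20 windows of 50 bases. Ddx3y, Xist, Itgam and Mki67 were named outside this rule after their values were seen. Rela, the NF-κB subunit gene with the smallest change, was also named outside it. Some genes and the results that need them are not reported here. Lyz2, whose locus drives Cre, had 31306 and 32147 FPKM in wt and 10422 and 8127 in cko. Alternatives were a pseudocount of 0.1, no filter or a minimum of 5 FPKM, scaling by median of ratios or quantiles, rescaling to one total once erythroid and hepatocyte markers were taken out, no trend, a replicate block, voom on reads and leaving out each library. Adding reads of copies, for Hmgb1, Hmgb2 and Hmgb3, was chosen after seeing the data. Sequences were aligned with Biopython 1.88 under Python 3.11.15, and promoters are from RefSeq.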

Additional observations from a re-analysis of the deposited data

How the results depend on the processing

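Across the fits with other scaling, filters, models or libraries, Hmga1 stayed above 0 (0.44 to 0.78) and Hmgb2 and Hmgb3 stayed below 0. Hmga1 lost its unadjusted p under 0.05 only without wt replicate 2, and with 1 library left out its log2 change ranged from 0.46 to 0.68. Hmgb2 had a log2 change of -0.42 and lost it with no filter, under the replicate block and without a trend, and at -0.21 with erythroid and hepatocyte genes removed, and its range with 1 library left out was -0.51 to -0.33. Hmgb1 turned to 0.20 with those genes removed, to 0.065 without wt replicate 1 and to 0.0081 without cko replicate 1, with a range of -0.072 to 0.065 over the libraries left out. The removed markers held 0.361% to 0.776% of FPKM, but each library was also rescaled to one total, which moved the median of all genes from 0.09 to 0.27, while median-of-ratios scaling moved it to -0.0074 and quantile normalization to -0.02.

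The members at an unadjusted p under 0.05 numbered 2, and 1 with no filter, with those genes removed, under the replicate block and without a trend, and 0 to 1 with 1 library left out. The genes with an adjusted p under 0.05 and |log2FC| of at least 1 were 0, and 2 by voom. At |log2FC| above 1 and an unadjusted p under 0.01 they were 247, 126 with a minimum of 5 FPKM, and 131 (without cko replicate 2) to 462 (without cko replicate 1) with 1 library left out, 147 without wt replicate 1. At an unadjusted p under 0.05 they were 1768, 1135 with a minimum of 5 FPKM, and 845 (without wt replicate 1) to 1732, 1073 without cko replicate 2. With 5 FPKM fewer genes were tested, and the other causes were not tested. Nothing states that the replicate numbers pair libraries, and the replicate 1 minus 2 differences of wt and cko correlated at -0.163 across genes. The block gave 1247 genes at an unadjusted p under 0.05 and 258 past the unadjusted 0.01 threshold. At 1 to 36 reads, Hmga2 and Sox4 are limited by depth.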

Other observations

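Hmgn2, which encodes a nucleosome-binding protein, had 229 and 239 FPKM in wt and 217 FPKM in cko replicate 1, but 40.9 FPKM in cko replicate 2. Its log2 change of -1.30 (adjusted p = 0.416, limma) therefore came mostly from 1 library. Hmgn5 was also lowest in that library, at 5.82 FPKM against 7.75 to 10.9 in the others, and Hmgn1 had 5.31 and 4.85 FPKM in wt and 3.83 and 5.42 FPKM in cko. In cko replicate 2 the Hmgb3 copy Gm11805 had 159 reads, against 11 to 39 in the others, and Tbxas1, which shares 21 windows of 50 bases with Cux1, had 248, 46, 92 and 170 reads in wt replicates 1 and 2 and cko replicates 1 and 2.

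Early and late neutrophil genes were counted separately. Of 6 early genes 2 were higher and 0 lower at an unadjusted p under 0.05 (median log2 change 0.32), and of 9 late genes 1 was higher and 6 lower (median -0.54). Among all tested genes 11.4% were higher and 4.95% lower at that threshold, with a median of 0.09. The difference between the lists was not tested.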
